A study of Mus musculus with 33 samples.

Results

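The genes described here are 9 glutamate receptor subunit genes, taken by symbol from the gene column of the RNA tables and the gene name column of the crosslinking tables. They are Gria1, Gria2, Gria3, Gria4, Grin1, Grin2b, Grm3, Grm5 and Grik2, 9 of 36194 genes in the crosslinking tables, and each has a single record among the 37926 records of each RNA table. The study examined mouse motoneurons depleted of the RNA-binding protein hnRNP R or of the noncoding RNA 7SK, and the RNAs that hnRNP R contacts. It comprised 33 libraries, of which 22 were RNA-seq and 11 were iCLIP. iCLIP (crosslinking and immunoprecipitation at nucleotide resolution) counts cDNAs that end where ultraviolet light joined a protein to RNA.

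The RNA-seq came from primary CD-1 motoneurons grown in microfluidic chambers, whose axons enter a separate compartment. Axonal and somatodendritic RNA was taken from hnRNP R knockdown (3 libraries per compartment), 7SK knockdown (4 per compartment) and GFP control cultures (4 per compartment). The labels do not say how the knockdowns were made or whether libraries came from separate cultures. The iCLIP libraries with antibody 1 were 2 from whole motoneurons, 2 from whole NSC34 cells, and 1 each from nuclei and cytoplasm of both. Antibody 2 gave 1 nuclear and 1 cytoplasmic NSC34 library, and IgG gave 1 library from NSC34 cells. NSC34 is a mouse hybrid line of neuroblastoma and spinal cord cells used as a motoneuron model.

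Glutamate opens ion channels of the AMPA (Gria), NMDA (Grin) and kainate (Grik) families and activates G-protein-coupled receptors of the Grm family. AMPA receptors are tetramers that carry most fast excitatory current, and the subunit of Gria2 makes them nearly impermeable to calcium once its RNA has been edited. Motoneurons are known for their sensitivity to calcium entering through AMPA receptors. NMDA receptors need the obligatory subunit of Grin1 together with others such as that of Grin2b.

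The iCLIP libraries of whole motoneurons held 359005 and 319381 cDNAs, those of whole NSC34 cells 456721 and 99762, and the IgG library 36280. The fractions held between 2796 and 194816. The targeted RNAs were read first. The authors' deposited table gave Hnrnpr 3.98 FPKM in hnRNP R knockdown axons, against 9.93 FPKM in controls (untested), and 10.8 FPKM in knockdown cell bodies, against 27.2 FPKM (q = 0.310). For 7SK (Rn7sk), the authors' deposited table gave 6370 FPKM in 7SK knockdown cell bodies, against 9104 FPKM in controls (q = 0.00407). In the axons labelled 7SK knockdown it stood at 3508 FPKM, against 2708 FPKM in controls of the authors' deposited table (q = 0.594), which goes against the label.

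Several defining motoneuron markers were at or near 0 in the cultures labelled motoneurons. Chat, Mnx1 and Isl2 were listed at 0 FPKM in all groups of the authors' deposited tables, and had 0 cDNAs in both whole motoneuron libraries. The authors' deposited table listed Isl1 at 2.42 FPKM in somatodendritic controls. Ret, which other neurons also express, had 7.88 FPKM there in the authors' deposited table. Interneuron markers were present, with Gad1 at 41.4 FPKM, Slc32a1 at 35.1 FPKM and Slc6a5 at 34.8 FPKM in the same group of the authors' deposited table. The radial glia marker Fabp7 stood at 168 FPKM there, again from the authors' deposited table. The cultures are called motoneurons below because the labels do so.

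hnRNP R iCLIP gave cDNAs of the 9 receptor genes in motoneurons and very few in NSC34 cells, with the smallest gap for Grin1. The members together held 4411 and 4880 cDNAs in the whole motoneuron libraries, against 15 and 8 in the NSC34 libraries and 7 with IgG. That was 1.23% (95% Clopper-Pearson interval 1.19 to 1.27) and 1.53% (1.49 to 1.57) of motoneuron cDNAs, against 0.00328% and 0.00802% in NSC34 cells. Scaled to library totals, the summed members were 331-fold higher in motoneurons (exact 95% interval 221 to 523). These intervals cover counting error only.

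Among the AMPA receptor genes, Gria2 (chromosome 3, 80488857 to 80606712, minus strand, build mm9) had 598 and 364 cDNAs in motoneurons, against 2 and 0 in NSC34 cells. Gria4 (chromosome 9) had 443 and 533 cDNAs in motoneurons, against 2 and 0 in NSC34 cells. Gria1 (chromosome 11) had 262 and 169 cDNAs in motoneurons and 0 in both NSC34 libraries. Gria3, on the X chromosome, was the least crosslinked of this family, with 77 and 75 cDNAs in motoneurons, against 1 and 0 in NSC34 cells. For each of the 4 genes the motoneuron and NSC34 libraries did not overlap. The share of all genes with such a separation was not counted, so the separation is no support by itself. In CPM (cDNAs scaled to a common library total), Gria2 averaged 1403 ± 372 in motoneurons and 2.19 ± 3.10 in NSC34 cells (SD, n = 2 each). Ratios were taken from cDNAs pooled over both libraries of a cell type, which weights the deeper library more than the means do. For Gria2 the pooled rates were 1418 CPM in motoneurons and 3.59 CPM in NSC34 cells, a ratio of 395 (exact 95% interval 109 to 3263). The ratio was 400 for Gria4 (110 to 3310) and 125 for Gria3 (22.0 to 4957). Gria1 was at least 118-fold higher in motoneurons, with the NSC34 level set to 3 cDNAs over both libraries.

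The promoter of Gria2 is known to carry an RE1 element, the site of the repressor REST, which silences neuronal genes in non-neuronal cells. An exact motif was chosen from this background: AGCACC followed after 2 bases by GGACAG, searched on both strands. RefSeq windows on GRCm38.p6 ran from 250 bases before to 50 after the start. Part of the Gria2 window is shown because Gria2 alone held this exact motif among the 5 members with an entry. The others were Grin1, Grm3, Gria4 and Grik2, and the Grin1 window held GGACAG but not AGCACC. Forms of the element that differ from the motif were not searched for. Whether the other members carry an RE1 element was thus not tested. Gria2 held it on the strand opposite to the gene, and 17 of 32851 windows held it on either strand (0.0517%). The stretch at chr3:80802984-80803013 is printed along the minus strand, 5′ to 3′, with the reverse complement of the motif in capitals.
Gria2: ccaaagcgCTGTCCGCGGTGCTaaaatcga
The motif begins 170 bases before the start site. Either box alone is common, with GGACAG in 22.2% and AGCACC in 16.2% of windows. Binding of REST was not measured in these data.

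Of the NMDA receptor genes, Grin2b (chromosome 6) had 439 and 353 cDNAs in motoneurons, against 2 and 0 in NSC34 cells. The ratio was 325 (exact 95% interval 89.6 to 2687). Grin1 (chromosome 2) had 18 and 20 cDNAs in motoneurons, 3 and 4 in NSC34 cells and 2 with IgG. In CPM, Grin1 stood at 50.1 and 62.6 in motoneurons, 6.57 and 40.1 in NSC34 cells and 55.1 with IgG. Its motoneuron level thus lay near the IgG value, which rests on 2 cDNAs from NSC34 cells. Grin1 was the weakest of the 9: in CPM, the lower motoneuron library was 1.25-fold above the higher NSC34 library, and the ratio was 4.45 (1.97 to 11.8).

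The kainate receptor gene Grik2 (chromosome 10) had the most cDNAs of all members, 1212 and 1782 in motoneurons, against 2 and 3 in NSC34 cells and 3 with IgG. It averaged 4478 ± 1558 CPM in motoneurons and 17.2 ± 18.2 in NSC34 cells (SD, n = 2 each). The pooled rates were 4413 CPM in motoneurons and 8.98 CPM in NSC34 cells, a ratio of 491 (210 to 1514). Grm5 (chromosome 7), a metabotropic receptor that signals through phospholipase C, had 1146 and 1311 cDNAs in motoneurons, against 3 and 1 in NSC34 cells. The ratio for Grm5 was 504 (197 to 1851). Grm3 (chromosome 5), a receptor that lowers cyclic AMP, had 216 and 273 cDNAs in motoneurons and 0 in both NSC34 libraries, at least 134-fold higher. The plot of levels by library shows this gap for each gene.

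**Figure D1:**
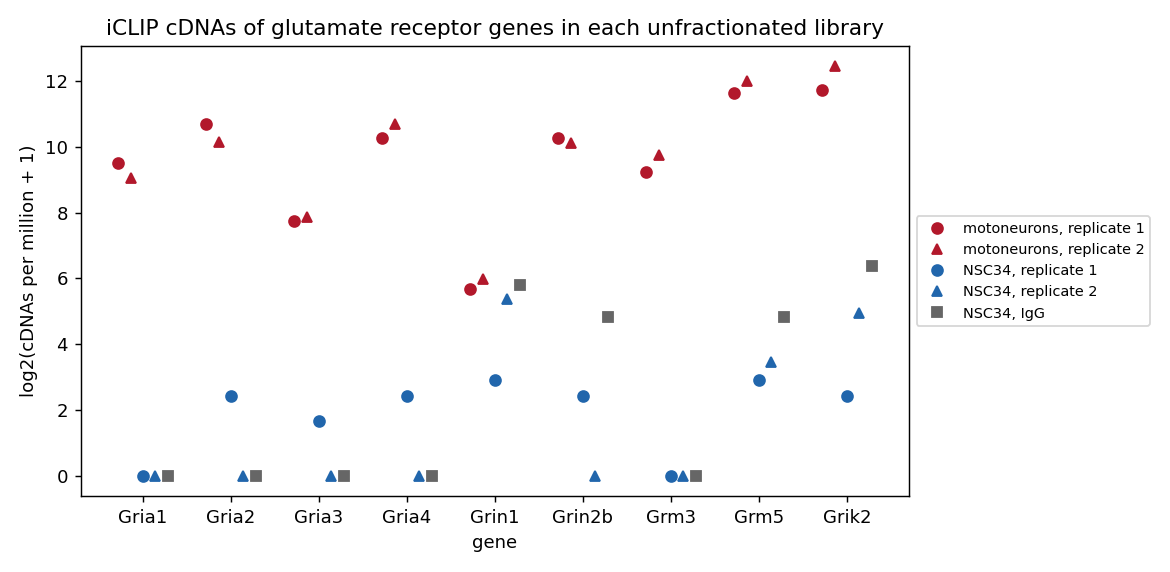
Level of each gene in the 5 whole-cell iCLIP libraries, as log2(CPM + 1); points are single libraries (red motoneurons, blue NSC34, grey IgG). The motoneuron points lie far above the NSC34 points for 8 genes, and Grin1 is the exception, with 18 and 20 cDNAs in motoneurons against 3 and 4 in NSC34 cells.

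All 9 genes were higher in motoneurons in edgeR's quasi-likelihood test with Benjamini-Hochberg adjustment over 9567 genes. The adjusted p was 5.4e-05 for Grin1 and between 1.6e-31 and 1.3e-18 for the other 8. The same call was made for 23.4% of all genes tested, and for 57.3% of the 1866 tested genes with 100 kb of intron or more, a length that all members but Grin1 exceed. All 9 passed the minimum of 10 cDNAs only through motoneuron libraries, so their count of calls is no support by itself. Grin1 did not pass with DESeq2 (adjusted p = 0.112), nor with edgeR when NSC34 replicate 1 was left out (adjusted p = 0.271). Its log2 fold change was 2.94, against 1.22 without NSC34 replicate 1 and 3.79 without NSC34 replicate 2. The size of the folds rests on few NSC34 cDNAs. The fitted log2 fold change of Grik2 was 9.74, against 7.92 without NSC34 replicate 1 and 10.62 without NSC34 replicate 2, and that of Grm5 was 9.80, against 9.13 without NSC34 replicate 1. Gria2, Gria3, Gria4 and Grin2b have 0 cDNAs in NSC34 replicate 2, so without replicate 1 they have no ratio.

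The TMM scaling raised motoneurons by 0.95 on the log2 scale relative to library totals. With library totals alone, an alternative added after the data were seen, 27.4% of the called genes were higher rather than 62.7%, and all 9 members were still called higher.

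Marker sums moved with this comparison. The 8 interneuron markers summed to 298 and 269 cDNAs in motoneurons, against 14 and 1 in NSC34 cells. The motoneuron markers went the other way, with 4 and 6 cDNAs in motoneurons, against 278 and 49 in NSC34 cells, of which Ret held 245 and 46. Their NSC34 sums, 609 and 491 CPM, were not above the 772 CPM with IgG. Astrocyte and radial glia markers summed to 202 and 135 cDNAs in motoneurons, against 102 and 14 in NSC34 cells. The part of cell type and of RNA level in the receptor result was not tested, because no NSC34 RNA values were used here.

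Other genes of glutamate signalling were read from 7 lists. Of 17 other glutamate receptor genes 12 were tested and all 12 were higher in motoneurons, with a median log2 fold change of 6.07 against 0.08 over all genes tested. Grm7 had 1256 and 864 cDNAs in motoneurons, against 2 and 1 in NSC34 cells, and Grid1 had 461 and 337, against 1 and 0. With library totals 11 of the 12 were called, Grik5 being lost. Both kainate receptor auxiliary genes were higher: Neto1 had 49 and 78 cDNAs in motoneurons and 0 in NSC34 cells, and Neto2 had 110 and 152, against 3 and 0.

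Of 10 tested genes for AMPA receptor auxiliary proteins 6 were higher and 0 lower, the 6 being Cacng2, Cacng4, Cacng8, Cnih3, Shisa6 and Olfm1. Shisa6 had 170 and 104 cDNAs in motoneurons and 0 in NSC34 cells. With library totals 4 were higher, and Cacng3 and Abhd6 were lower. Scaffold genes were less one-sided, with 12 of 17 higher and a median log2 fold change of 2.08. With library totals 10 were higher, Dlg1 and Pick1 were lower, and the median was 1.13. Dlg2, the scaffold with the most motoneuron cDNAs, had 1320 and 877 in motoneurons, against 1489 and 254 in NSC34 cells, and was not called with library totals. Grip1, which binds AMPA receptor tails, had 703 and 682 cDNAs in motoneurons, against 1396 and 260 in NSC34 cells, and Dlgap1 had 531 and 431, against 311 and 58.

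Of 5 tested glutamate transport genes 4 were higher. The other, Slc1a4, had 11 and 12 cDNAs in motoneurons, against 46 and 11 in NSC34 cells, and was called lower with library totals. Slc17a6, the vesicular transporter of excitatory neurons, had 98 and 77 cDNAs in motoneurons and 0 in NSC34 cells. The others were Slc1a1 (21 and 21 in motoneurons, against 0 and 0), Slc1a2 (188 and 108, against 96 and 14) and Slc1a3 (11 and 9, against 0 and 0). Receptors of inhibitory transmitters behaved like the glutamate receptors, with all 16 tested genes higher and a median of 7.29. Gphn, with 403 and 322 cDNAs in motoneurons, against 540 and 102 in NSC34 cells, was not called with library totals. Gabrg3 had 301 and 174 cDNAs in motoneurons, against 2 and 1 in NSC34 cells.

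Among the RNA editing enzymes, Adarb1, which edits the Gria2 codon that sets calcium permeability, had 31 and 39 cDNAs in motoneurons, against 51 and 7 in NSC34 cells. It passed the edgeR test (adjusted p = 0.0207) and did not with library totals. Adarb2 had 651 and 455 cDNAs in motoneurons, against 3 and 1 in NSC34 cells.

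By the smallest mean absolute difference in log2(CPM + 1) over the 11 libraries, after centring each profile, the 5 genes most like the summed members were Cntnap2 (0.498), Ptprd (0.668), Csmd1 (0.697), Lsamp (0.880) and Fam155a (0.946), out of 1763 genes with at least 200 cDNAs. Cntnap2, a neurexin-like adhesion protein gene, had 2641 and 3025 cDNAs in motoneurons, against 23 and 5 in NSC34 cells. Libraries share their source cells and antibody, so this is a description.

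The IgG library held 0 to 3 cDNAs of each member, and the NSC34 replicates 0 to 4. No member passed the edgeR test of NSC34 cells against IgG (adjusted p 0.366 to 1), a test in which 0.199% of genes were called higher. The IgG file carries the same library identifier as NSC34 replicate 2 and names hnRNP R as its protein, so its identity rests on its title. A difference from IgG was not detectable at this depth, since 3 cDNAs equal 82.7 CPM in the IgG library. No IgG library from motoneurons was used here. All 9 members had 0 cDNAs in the cytoplasmic NSC34 library of antibody 1 and in both libraries of antibody 2, where 3 cDNAs equal 841, 400.4 and 1073 CPM.

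Most member cDNAs lay in introns, and Gria2 had the largest 3′ UTR share. Introns held 95.3% (94.8 to 95.7) of member cDNAs over both motoneuron replicates, against 87.4% over all genes. Gria2 had 97 of 598 and 92 of 364 cDNAs in its 3′ UTR, or 16.2% (13.4 to 19.4) and 25.3% (20.9 to 30.1). The 3′ UTR share over all genes was 5.50% and 6.85%. The other 8 members together had 1.38% (1.14 to 1.66) there. Shares also depend on segment length, and Gria2 had 111 kb of intron, the least after Grin1. No NSC34 library held enough member cDNAs for a share.

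Segment lengths were used to set the densities side by side. Per kb, the 3′ UTR of Gria2 (3.78 kb) had 25.7 and 24.4 cDNAs in the motoneuron replicates, and its introns had 4.37 and 2.39. Over both replicates the 3′ UTR density was 7.40-fold the intron density (exact 95% interval 6.27 to 8.69). Grm5 had 42 and 42 cDNAs in its 3′ UTR, at 4.64-fold the intron density (3.69 to 5.77). Grm3 had 5 and 3, a ratio of 7.52 with a wide interval (3.23 to 14.9), and Gria4 had 3 and 9, a ratio of 2.07 (1.07 to 3.63).

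Grik2 differed from these in having its exonic cDNAs in the segment annotated as coding sequence. It had 38 and 42 cDNAs in this segment of 6.49 kb, at 2.88-fold its intron density (2.28 to 3.60). Only 0 and 2 lay in its 3′ UTR of 1.07 kb. Whether all of the 6.49 kb is coding in every transcript was not checked. The intervals of Grin2b (0.688 to 3.55) and Gria1 (0.0681 to 2.05) for the 3′ UTR against introns included 1. Gria3 and Grin1 had 0 cDNAs in the 3′ UTR of 152 and 38, which bounds the share at 2.40% and 9.25% (upper Clopper-Pearson limits).

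**Figure D2:**
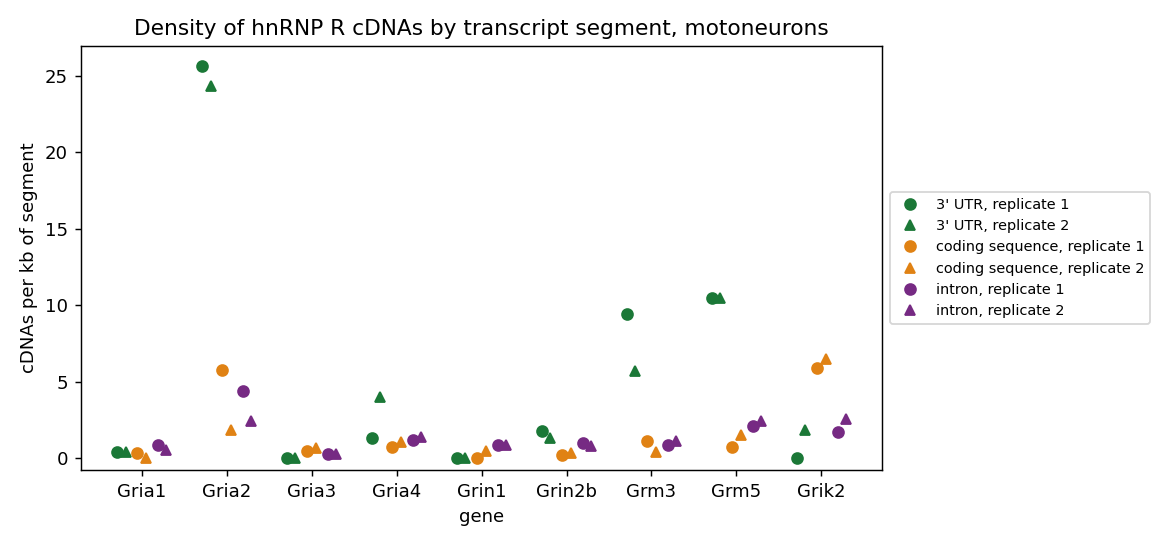
cDNAs per kb of 3′ UTR (green), annotated coding sequence (orange) and intron (purple) in each whole motoneuron replicate, 1 point per replicate and not scaled for depth. Gria2 reaches 25.7 and 24.4 in the 3′ UTR, Grm5 follows at 10.5 in both replicates, and Grik2 has its highest density in annotated coding sequence.

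Per kb of intron, with cDNAs pooled over both replicates and not scaled for depth, the members had the following densities: Gria2 (6.76 cDNAs per kb), Grm5 (4.51), Grik2 (4.27), Gria4 (2.57), Grm3 (2.01), Grin2b (1.80), Grin1 (1.71), Gria1 (1.36) and Gria3 (0.542). Grin1 had the fewest cDNAs, yet its 20.4 kb of intron carried about the density of Grin2b with 435 kb. The replicates differed in this order. Gria2 led in replicate 1 (4.37, against 2.10 for Grm5 and 1.72 for Grik2), and in replicate 2 it had 2.39, beside 2.41 for Grm5 and 2.55 for Grik2. Grm3 and Grin2b also changed places between the replicates. cDNAs were spread over many positions, with 96.9 and 86.5 crosslink sites per 100 member cDNAs in the 2 motoneuron libraries, against 96.1 and 86.0 over all genes.

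In the motoneuron fractions, members held 966 cDNAs (1.06%) in the nuclear library and 2548 (1.31%) in the cytoplasmic library. Grm5 had 2026 CPM in nuclei and 3357 in cytoplasm, a ratio of 0.604 (counting interval 0.510 to 0.712). Grm3 had 580 CPM in nuclei and 888 CPM in cytoplasm (0.654, interval 0.471 to 0.894), and Grik2 had 3439 in nuclei and 3958 in cytoplasm (0.869, 0.760 to 0.992). For the other 6 genes the interval included 1. These intervals compare 2 single libraries and not the fractions as conditions.

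Over the 3 nuclear and cytoplasmic pairs no member passed edgeR's test blocked by pair, with an adjusted p of 1 for each. Member cDNAs numbered 7 and 0 in the NSC34 pair of antibody 1, and 0 and 0 in that of antibody 2. For the members the test thus rested almost wholly on the motoneuron pair and cannot decide whether fractions differ. The fitted log2 values of Gria4 (0.36) and Grik2 (0.22) were above 0, while their motoneuron pair ratios were 0.791 and 0.869. The test called 0% of 5177 genes, and 27 (0.522%) had an unadjusted p under 0.05. DESeq2 called 3. Intronic cDNAs made up 95.2% of member cDNAs in the cytoplasmic library and 96.2% in the nuclear library. The introns of all genes held 87.5% of cytoplasmic cDNAs and 91.5% of nuclear cDNAs. The 3′ UTR share of Gria2 was 13.7% (8.02 to 21.3) in nuclei and 19.2% (14.7 to 24.4) in cytoplasm, with overlapping intervals.

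**Figure D3:**
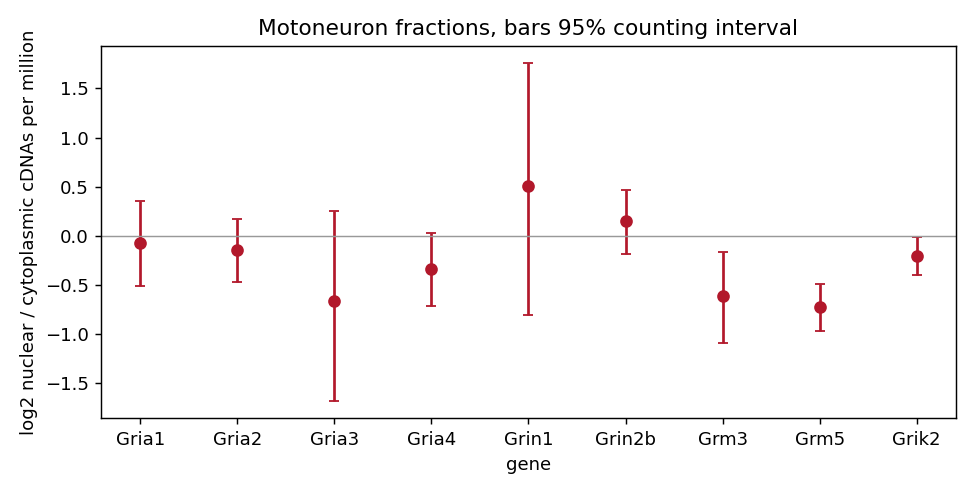
log2 ratio of nuclear to cytoplasmic CPM in the motoneuron fractions; bars are exact 95% counting intervals for 1 library each. Grm5, Grm3 and Grik2 lie below 0 with their whole interval, and Grin1 has the widest interval (ratio 1.42, 0.571 to 3.38).

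All 9 members had RNA on both sides of the chambers. In control cultures of the hnRNP R comparison, the authors' deposited table gave Grin1 41.1 FPKM (fragments scaled to gene length and depth) on the somatodendritic side, the highest of the 9. It gave Gria2 24.8, Grin2b 23.1, Grm5 17.7, Grik2 17.2, Gria4 16.5, Gria1 15.7, Grm3 15.3 and Gria3 7.99 FPKM, per the same authors' deposited table. The tables hold 1 value per group, so no spread is available and neighbours in this order cannot be separated. In bulk RNA, fewer cells of a type and less RNA per cell cannot be told apart.

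Axonal levels were lower than somatodendritic levels for 8 of 9 members, against 70.5% of genes at 1 FPKM or more. More than 2-fold lower were 7 members, against 33.3% of these genes. Grin1 had 16.0 FPKM in control axons and 41.1 FPKM in control cell bodies, per the authors' deposited table. Gria2 stood at 6.50 FPKM in axons and 24.8 FPKM in cell bodies of the authors' deposited table, and Gria4 at 3.78 and 16.5 FPKM, the lowest ratio of the 9 (log2 -2.10 with 0.1 FPKM added). Gria3 was the exception, with 8.92 FPKM in axons and 7.99 FPKM in cell bodies of the authors' deposited table. The median log2 ratio was -1.36 for the members and -0.58 for all 13576 genes. It has no test, and each table was normalised separately.

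The knockdown comparisons called no member. hnRNP R knockdown called 0.114% of 1749 tested genes in axons and 0.975% of 2768 in cell bodies at the authors' q under 0.05. The comparisons labelled 7SK knockdown called 3.07% of 1009 in axons and 2.51% of 1954 in cell bodies. The authors' deposited table of each axonal comparison tested 0 members, that of hnRNP R cell bodies tested 3 and that of 7SK cell bodies tested 1. Taking the higher of each gene's group values, the lowest among tested genes was 20.9 to 35.5 FPKM in the 4 authors' deposited tables, above most member levels. Both knockdowns share their GFP controls.

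Grin1 was the one member under an unadjusted p of 0.05. The authors' deposited table gave it 21.3 FPKM in 7SK knockdown cell bodies, against 37.9 FPKM in GFP control cell bodies (p = 0.0063, q = 0.113). An unadjusted p under 0.05 was reached by 15.3% of the genes tested there. With hnRNP R knockdown the authors' deposited table gave Grin1 35.0 FPKM in cell bodies, against 41.1 FPKM in controls (q = 0.763). Its axonal values were 27.7 FPKM in the axons labelled 7SK knockdown, against 16.5 FPKM in controls, in the authors' deposited table, and carried no test. Summed interneuron markers were 132 FPKM in 7SK knockdown cell bodies, against 171 FPKM in controls, over 8 genes of the authors' deposited table, and their part in the Grin1 values was not tested.

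Gria2 and Grin2b were tested in hnRNP R knockdown cell bodies. The authors' deposited table gave Gria2 27.1 FPKM in the knockdown, against 24.8 FPKM in controls (q = 0.939). For Grin2b the authors' deposited table gave 21.7 FPKM in the knockdown, against 23.1 FPKM in controls (q = 0.942). Gria2, whose 3′ UTR had the densest crosslinks, thus differed by 0.13 on the log2 scale.

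The remaining member values are untested. The largest ratio belonged to Gria3 in hnRNP R knockdown axons, with 4.14 FPKM against 8.92 FPKM in control axons of the authors' deposited table. In axons labelled 7SK knockdown the authors' deposited table gave Grm3 10.4 FPKM, against 5.80 FPKM in controls. Grik2 had 11.8 FPKM in these axons, against 7.19 FPKM in controls of the authors' deposited table. Microglia markers summed to 110 FPKM in axons labelled 7SK knockdown, against 5.86 FPKM in controls of the authors' deposited table, with none of the 8 at 0 in both. Their part in the axonal values was not tested.

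**Figure D4:**
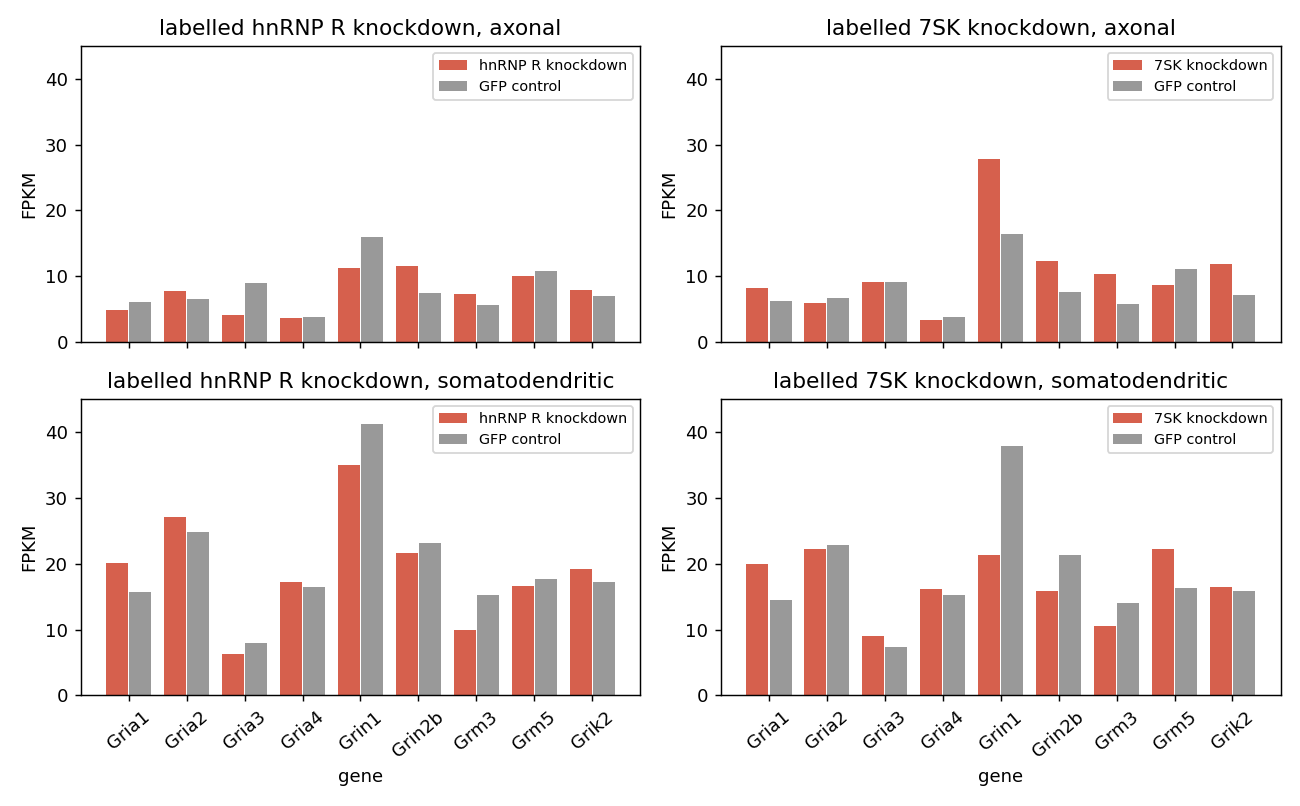
FPKM of each gene in knockdown (red) and GFP control (grey) groups, 1 value per group from the authors' deposited tables, with axons in the upper row and the somatodendritic side in the lower. Grin1 in 7SK knockdown cell bodies (21.3 FPKM, against 37.9 FPKM in controls) shows the widest gap, and the bars carry no error because no replicate values were used.

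The members' median log2 ratio with 0.1 FPKM added was -0.02 in hnRNP R knockdown axons, against 0.03 over all genes at 1 FPKM or more, and -0.09 in hnRNP R knockdown cell bodies, against 0.02. It was 0.40 in axons labelled 7SK knockdown, against 0.07 over all such genes, and 0.06 in 7SK knockdown cell bodies, against 0.08. No gene of the 7 glutamate and inhibitory signalling lists was called in any of the 4 comparisons. Most were not tested, since each list had between 0 and 6 tested genes in a comparison. Over all tested genes the called share ran from 0.114% to 3.07%, so few calls could be seen.

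Among the most abundant genes of these lists, none passed the authors' test in hnRNP R knockdown cell bodies. The authors' deposited table gave Grik5 18.0 FPKM in the knockdown, against 21.8 FPKM in controls (q = 0.585), Grik3 15.8 against 15.2 FPKM and Grm7 12.6 against 14.2 FPKM, without a test for Grik3 and Grm7. Of the AMPA receptor auxiliary genes, Olfm1 had 154 FPKM in the knockdown, against 153 FPKM in controls of the authors' deposited table (q = 0.988). Cacng7 and Cacng4, which encode TARP proteins that traffic AMPA receptors, had 45.2 and 39.1 FPKM in the knockdown, against 51.7 and 48.2 FPKM in controls of the authors' deposited table (q = 0.670 and 0.537). Dlg4, the main scaffold of excitatory synapses, had 118 FPKM in the knockdown, against 122 FPKM in controls of the authors' deposited table (q = 0.941). Slc1a3, a glial glutamate transporter, had 76.0 FPKM in the knockdown, against 85.8 FPKM in controls of the authors' deposited table (q = 0.851).

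In 7SK knockdown cell bodies Shank1, a scaffold of excitatory synapses, had 34.6 FPKM, against 64.3 FPKM in controls of the authors' deposited table (q = 0.152). Gabbr1, a GABA-B receptor subunit, had 107 FPKM there, against 146 FPKM in controls of the authors' deposited table (q = 0.165).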

How the data were processed

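The deposited iCLIP count of each gene is a whole number of cDNAs per library on mm9 with Ensembl 59, per the file headers. The density column (signal per base) is also the authors', per the file headers. Each FPKM, log2 ratio, test score, p-value and q-value of the RNA tables was computed by the authors, with Cufflinks 2.2.1 after FastQC 0.10.1 and build GRCm38, per the submitters' processing notes. The aligner and read collapsing: not given in the sources used here. A further 1111 per-sample iCLIP columns were not used.

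Counts with at least 10 cDNAs over the libraries of a fit were tested with edgeR 4.0.16 (R 4.3.3) using TMM scaling and quasi-likelihood, adjusted by Benjamini-Hochberg at 0.05. DESeq2 1.42.0 was an alternative. One fit covered the 5 whole-cell libraries and another the 6 fractions, blocked by pair. On simulated data the first recovered 92% of 4-fold and 100% of 8-fold changes. The changed genes there had at least 5 expected cDNAs in the smallest whole-cell antibody library, and all genes had the same spread. Each member had fewer cDNAs than that in each NSC34 library, so these rates do not describe the members. Rate ratios have exact conditional intervals and shares have Clopper-Pearson intervals (95%). A level of 0 was bounded by 3 cDNAs. The RNA read depth is unknown. Only the title marks the IgG file as IgG: its header gives hnRNP R as the protein and the same library identifier as NSC34 replicate 2. The p-values measure only the spread between libraries, which may be technical. All members and, from each list, every gene passing the test were named, or the 3 with the most cDNAs where none or more than 6 passed. Some genes this rule names are not reported here. Members and lists were chosen with earlier results of these data known.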

Additional observations from a re-analysis of the deposited data

Results flagged for a closer look

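Antisense cDNAs at Grm5 were seen in data outside the comparisons above and lay above the IgG level. NSC34 replicates held 178 and 31 cDNAs on the strand opposite to Grm5, or 376 CPM over both, against 165 CPM (6 cDNAs) with IgG. The ratio was 2.27 (exact 95% interval 1.03 to 6.26, counting error only). The 2 motoneuron libraries held 0. The 178 cDNAs lay at 166 sites, all in introns, and were the third highest antisense count of any gene in that library. The opposite-strand gene annotated within Grm5 is a U7 snRNA, which had 0 cDNAs in the 11 libraries. The IgG library shares its identifier with NSC34 replicate 2, so the IgG level rests on its title. The source of these cDNAs was not tested.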

How the results depend on the processing

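For motoneurons against NSC34 cells, all 9 members kept their direction under every alternative run, and 8 kept their call, while their fold moved by more than 1.5 times in several cases when an NSC34 replicate was left out. Genes called numbered 3566, against 1497 with DESeq2 and 1954 to 3106 with 1 replicate left out (lowest without NSC34 replicate 1). The replicate numbers did not pair the libraries (r = -0.02 between deviations over 2664 genes), and the replicate block gave 3211 calls and 9 members. For NSC34 cells against IgG, 51 genes were called, against 11 with DESeq2, 31 with introns only, 81 with library totals and 6 to 162 with 1 replicate left out: 162 without either motoneuron replicate and 6 without NSC34 replicate 2. With DESeq2 the log2 values of Gria2 (-0.32), Gria3 (-1.12) and Gria4 (-0.32) changed sign there, none of them called. For nuclear against cytoplasmic fractions, 1 gene was called with RLE factors, 3 with DESeq2 and 0 to 6 with a pair left out (6 without the motoneuron pair). Uncalled members changed sign: with RLE factors Gria4 (-0.03) and Grik2 (-0.043); with DESeq2 Gria4 (-0.0915), Grin1 (-0.34), Grin2b (-1.06) and Grik2 (-0.31); without the filter Grin2b (-0.18); with no replicate block Gria4 (-0.40) and Grik2 (-0.30); and with a pair left out Gria4 (-0.41 to 0.43) and Grik2 (-0.28 to 0.29). An unadjusted p would call 1 member, Grin1, in 7SK knockdown cell bodies. The axonal median was -1.20 with the control values of the 7SK tables. The cause was not tested for any of these. Single-group FPKM values and NSC34 counts of 0 to 4 limit what can be seen.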
